A study of Mus musculus with 8 samples.

Results

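Expression of 9 genes of blood coagulation and fibrinolysis was followed in peritoneal macrophages of mice: the clotting genes F3, F7, F10 and F13a1, the anticoagulant receptor genes Thbd and Procr, and the plasminogen activation genes Plau, Plaur and Serpinb2. They were chosen by gene symbol, each matched 1 locus, and together they were 9 of the 23735 loci in the deposited table. The libraries came from C57BL/6J mice aged 8 weeks, and there were 2 libraries, marked A and B, in each of 4 groups. These were macrophage MED1 knockout (KO, from MED1ΔMac animals) given LPS, the bacterial lipopolysaccharide sensed by TLR4, at 50 ng/mL over 6 h, untreated KO, floxed MED1 fl/fl controls (WT, as the labels call them) with the same LPS, and untreated WT. The sources used here name neither the Cre driver nor the animals behind a library, so p-values measure only the spread between libraries, which may be technical.

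Coagulation starts where tissue factor, the product of F3, meets factor VII of the plasma. The pair activates factor X, which generates thrombin, and thrombin turns fibrinogen into fibrin. Factor XIII then cross-links the fibrin. A pair of receptors opposes this: thrombomodulin binds thrombin and redirects it towards protein C, and the endothelial protein C receptor presents protein C to that complex. Fibrin is dissolved by plasmin, which urokinase (Plau) releases from plasminogen at its receptor (Plaur), while inhibitors of the serpin family such as Serpinb2 block urokinase. Macrophages are a known extrahepatic source of several of these proteins, and tissue factor is the one best known to appear on monocytes and macrophages exposed to LPS. MED1 is a subunit of Mediator, the complex that links transcription factors to RNA polymerase.

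By the fit without a block, LPS changed 4 of the 9 genes, where 6.62% of all loci tested passed in KO and 6.31% in WT. F3 and Serpinb2 rose in both genotypes, Procr rose in KO, and Thbd fell in both. In WT, Procr was also higher in every LPS library than in any untreated one, without passing the test. Plaur was higher, and F7 lower, in every LPS library than in any untreated library of the same genotype without passing the test, and F13a1, F10 and Plau did not pass either. Of all loci, 15.1% in KO and 18.2% in WT lay wholly higher with LPS, and 48.0% and 45.9% wholly lower. With the library letter as a block, F7 passed in both genotypes and Plaur and F13a1 in KO, so that 7 of 9 passed in KO and 4 of 9 in WT. The block also raised the calls among all 11272 loci, from 746 to 1611 in KO and from 711 to 1818 in WT. No gene of the 9 passed as different between KO and WT.

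Steps among low values put the depth at 7.0 to 14.4 M mapped reads per library, and 10192 to 11027 loci reached 1 RPKM. RPKM is a read count scaled to transcript length and to the mapped reads of the library, so levels of different genes can be set side by side. Of the 7 macrophage markers matched, 6 were at 222 RPKM or more in every library, with Csf1r between 249 and 948 RPKM and Emr1 between 277 and 709 RPKM, while Fcgr1 was at 0.455 to 17.3 RPKM. Lyz2 was lower in KO libraries, at 5111 and 4547 RPKM in KO with LPS and 8503 and 15001 in untreated KO, against 17329 and 13231 in WT with LPS and 28588 and 32317 in untreated WT. All 6 endothelial and all 6 mesothelial markers stayed below 1 RPKM in every library. B cell markers were present, with a sum of 5 genes of 1348 and 940 RPKM in KO with LPS, 543 and 1614 in untreated KO, 582 and 387 in WT with LPS, and 596 and 525 in untreated WT. In a bulk sample, fewer cells of a type and less RNA per cell cannot be told apart. Med1 itself was at 24.4 and 20.3 RPKM in KO with LPS, 17.6 and 23.4 in untreated KO, 24.7 and 21.6 in WT with LPS, and 21.7 and 24.8 in untreated WT. Over both treatments Med1 differed by a log2 of -0.12 between KO and WT (95% interval -0.47 to 0.24, adjusted p = 0.999). Which exons were deleted is not stated, so this whole-gene value does not check the knockout.

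The sequences before the starts of the 4 members with the largest increases under LPS are shown because all 4 genes were higher, without overlap, in the LPS libraries of each genotype. They were chosen by that response, so what their sequences share is a description. They are RefSeq promoter windows, credited to the GRCm38.p6 table and placed on mm9 by exact match, 250 bases before each RefSeq start. Procr is shown as 150 bases, since the rest of its window lies inside the gene as annotated on mm9. Capitals mark TGANTCA, the pattern searched for AP-1, where N is any base. It reads the same on both strands. F3 held TGAATCA and TGAGTCA, Procr and Plaur held TGACTCA, and Serpinb2 held TGAATCA.
F3, chr3:121426205-121426454, plus strand: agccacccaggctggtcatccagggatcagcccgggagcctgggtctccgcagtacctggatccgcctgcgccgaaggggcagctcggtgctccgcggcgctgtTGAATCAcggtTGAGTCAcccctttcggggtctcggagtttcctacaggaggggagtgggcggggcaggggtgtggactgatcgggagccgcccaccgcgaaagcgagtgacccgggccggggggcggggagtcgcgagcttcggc
Procr, chr2:155576703-155576852, plus strand: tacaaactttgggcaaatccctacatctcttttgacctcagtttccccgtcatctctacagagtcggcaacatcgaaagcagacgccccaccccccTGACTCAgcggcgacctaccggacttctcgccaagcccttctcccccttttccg
Plaur, chr7:25247252-25247501, plus strand: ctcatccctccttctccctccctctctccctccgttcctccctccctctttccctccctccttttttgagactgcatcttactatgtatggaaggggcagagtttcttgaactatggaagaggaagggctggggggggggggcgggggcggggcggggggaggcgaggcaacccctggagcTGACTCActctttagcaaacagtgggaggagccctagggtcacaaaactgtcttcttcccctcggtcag
Serpinb2, chr1:109407750-109407999, plus strand: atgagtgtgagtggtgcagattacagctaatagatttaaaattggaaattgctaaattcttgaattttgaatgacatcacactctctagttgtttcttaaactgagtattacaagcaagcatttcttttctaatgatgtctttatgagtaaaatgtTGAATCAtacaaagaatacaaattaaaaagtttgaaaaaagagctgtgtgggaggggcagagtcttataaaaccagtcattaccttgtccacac

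Of the 7 members matched in the promoter table, F3, Procr, Plaur and Serpinb2 held TGANTCA in the 250 bases before the RefSeq start, F3 at 2 places, and F7, F10 and F13a1 held none. The same letters were in 6.7% of 32536 promoter windows of that length. Other letters were searched on both strands as well. The GC box GGGCGG was in the windows of F3 and Plaur and in 33.0% of all windows, and TATAAA was in that of Serpinb2 and in 12.3% of all windows. The C/EBP letters TTNCNNAA were in Procr, Plaur, Serpinb2 and F13a1, and in 36.8% of all windows. NF-kB was searched as GGGRNNYYCC, where R is A or G and Y is C or T. These letters were in none of the 7, and in 7.3% of all windows. Sites that depart from these letters were not searched. A match is a description of the letters, not a bound site, and a missing match says only that the letters are not in this window.

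**Figure D1:**
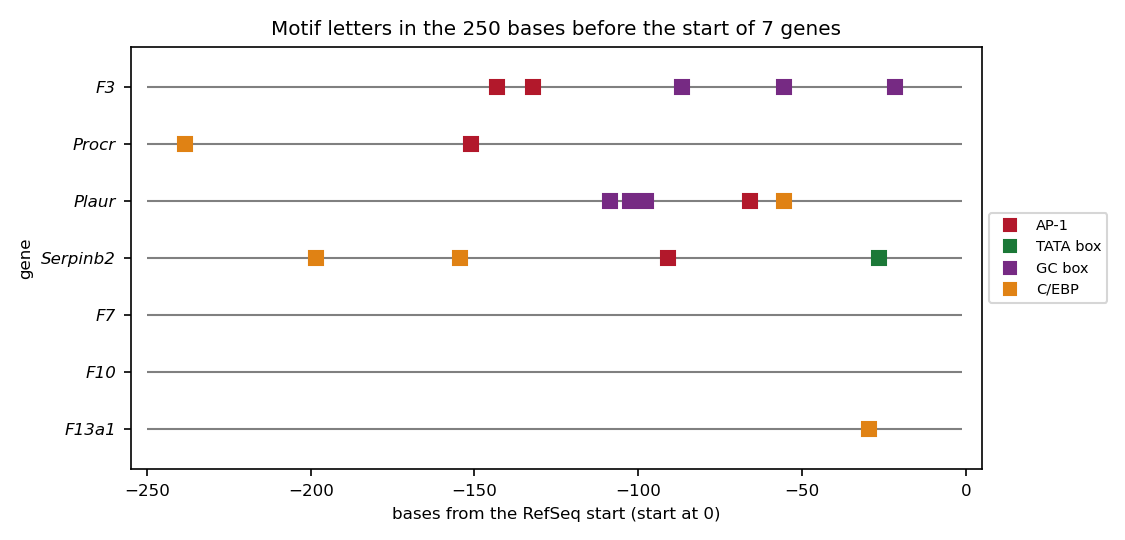
Position of motif letters (squares, coloured by motif) in the 250 bases before the RefSeq start of 7 genes; the x axis is the distance from the start in bases and each row is 1 gene. AP-1 letters stand in the rows of F3, Procr, Plaur and Serpinb2, and the rows of F7 and F10 hold none of the motifs searched.

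Tissue factor transcripts were the fifth most abundant of the 9 with LPS, and the least abundant without it. F3 (chromosome 3, 121426455 to 121437970, plus strand, mm9, as all gene positions here) was at 73.9 and 81.6 RPKM in KO with LPS, against 11.7 and 3.98 RPKM in untreated KO. It was at 66.5 and 205 RPKM in WT with LPS, against 12.8 and 7.73 RPKM in untreated WT (libraries A and B throughout). Every LPS library lay above every untreated one of either genotype. The ratio of group means was 9.91 in KO and 13.2 in WT. On the log2(RPKM + 1) scale used for all tests, the change was 3.31 in KO (SE 0.60, adjusted p = 0.0267) and 3.42 in WT (SE 0.60, adjusted p = 0.0243), from limma with Benjamini-Hochberg adjustment over 11272 loci.

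Factor VII and factor X are encoded by neighbours on chromosome 8, both on the plus strand, with 1498 bases between them. F7 (13026034 to 13035809) was at 56.4 and 36.9 RPKM in KO with LPS, against 145 and 82.5 RPKM in untreated KO, and at 57.9 and 36.1 RPKM in WT with LPS, against 112 and 128 RPKM in untreated WT. LPS libraries lay below untreated ones in both genotypes, as for 48.0% of all loci in KO and 45.9% in WT. The log2 changes of -1.24 in KO (SE 0.36, adjusted p = 0.0794) and -1.37 in WT (SE 0.36, adjusted p = 0.0647) did not pass. They passed with the library letter as a block, at adjusted p = 0.0256 in KO and 0.0168 in WT. F10 (13037308 to 13056676) was at 523 and 423 RPKM in KO with LPS, against 278 and 266 RPKM in untreated KO. It was at 408 and 346 RPKM in WT with LPS, against 331 and 456 RPKM in untreated WT, which overlap. The log2 change of F10 was 0.79 in KO (SE 0.25, adjusted p = 0.0935) and -0.05 in WT (95% interval -0.63 to 0.53, adjusted p = 0.914). The value in KO passed with median-ratio scaling (1.10, adjusted p = 0.0396), and that in WT turned to 0.24 there.

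F13a1, the catalytic A subunit of factor XIII (chromosome 13, 36959047 to 37142113, minus strand), was at 4.25 and 2.47 RPKM in KO with LPS, against 35.4 and 19.3 RPKM in untreated KO. It was at 21.1 and 6.30 RPKM in WT with LPS, against 55.9 and 14.2 RPKM in untreated WT. The KO groups do not overlap, and the WT groups do, although within each letter the LPS library was the lower. The log2 change was -2.67 in KO (SE 0.72, adjusted p = 0.0687; 0.00544 once the letter was a block) and -1.21 in WT (SE 0.72, adjusted p = 0.297). Platelets carry this subunit too. Of the 6 platelet markers listed, Gp9, Gp5, Itga2b and Gp1ba were below 1 RPKM in all libraries, Ppbp reached 7.64 RPKM, and Pf4 was at 697 to 3468 RPKM; the part of platelet RNA in the F13a1 values was not tested.

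**Figure D2:**
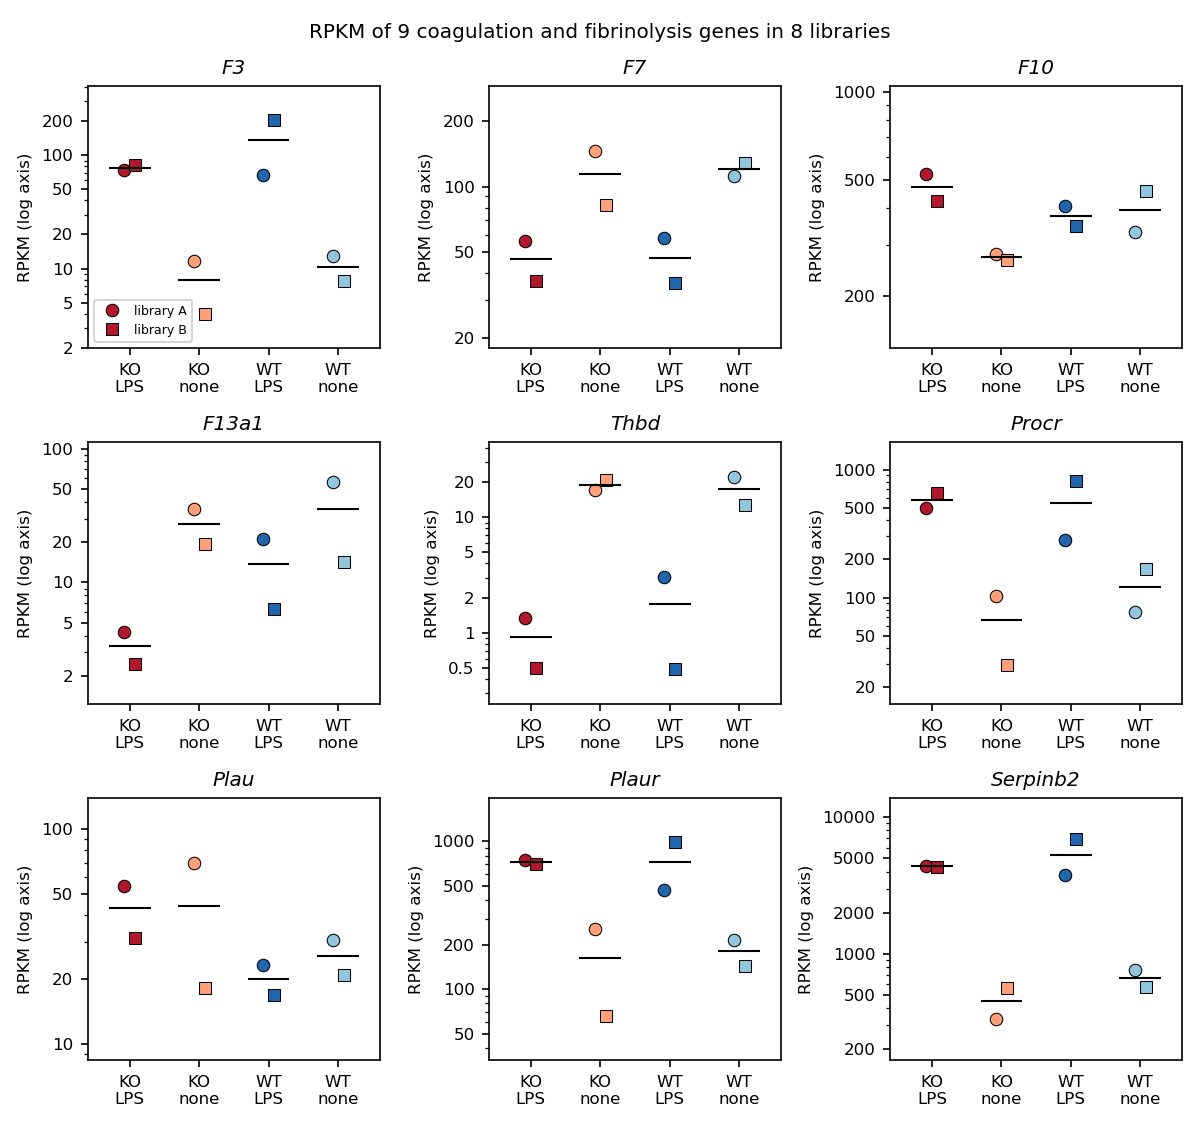
RPKM (log axis) of the 9 genes in the 8 libraries, with circles for library A, squares for library B and a bar at the mean of 2; columns are KO with LPS, untreated KO, WT with LPS and untreated WT. F3, Procr, Plaur and Serpinb2 lie higher and Thbd lower with LPS in both genotypes, without overlap.

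The anticoagulant receptors differed in direction. Thbd, which encodes thrombomodulin (chromosome 2, 148230207 to 148233924, minus strand), was at 1.34 and 0.494 RPKM in KO with LPS, against 17.2 and 21.0 RPKM in untreated KO. It was at 3.05 and 0.486 RPKM in WT with LPS, against 22.4 and 12.8 RPKM in untreated WT. All 4 LPS libraries lay below all 4 untreated ones, and with LPS the values rest on about 51 and 16 reads in KO and 127 and 13 reads in WT, estimated from the longest annotated transcript. Thbd fell by 3.42 on the log2 scale in KO (SE 0.50, adjusted p = 0.0159) and fell by 2.87 in WT (SE 0.50, adjusted p = 0.0240). The ratio of mean RPKM, which the added 1 does not dampen, was 0.0480 in KO and 0.1005 in WT.

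Procr, the gene of the endothelial protein C receptor (chromosome 2, 155576853 to 155581207, plus strand), was at 500.0 and 661 RPKM in KO with LPS, against 104 and 29.5 RPKM in untreated KO. It was at 280 and 820 RPKM in WT with LPS, against 77.3 and 166 RPKM in untreated WT. LPS libraries were higher without overlap in both genotypes. Procr rose in KO by 3.35 (SE 0.71, adjusted p = 0.0388), while the 2.07 in WT did not pass (SE 0.71, 95% interval 0.41 to 3.73, adjusted p = 0.112). The difference between the 2 responses did not pass either, at 1.28 (95% interval -1.07 to 3.63, adjusted p = 1.0). Both receptors are known from endothelium, whose 6 listed markers summed to at most 1.53 RPKM in any library.

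Of the plasminogen activation genes, the inhibitor rose with LPS in both genotypes, and the receptor and the enzyme did not pass. Serpinb2, an inhibitor of urokinase known for its abundance in stimulated macrophages (chromosome 1, 109408000 to 109432055, plus strand), was at 4420.2 and 4316 RPKM in KO with LPS, against 334 and 566 RPKM in untreated KO. It was at 3752 and 6914 RPKM in WT with LPS, against 764 and 577 RPKM in untreated WT. It was the most abundant of the 9 in every group, and with LPS its mean ranked number 11 in KO and number 7 in WT among the 23735 loci. Serpinb2 rose by 3.32 in KO (SE 0.40, adjusted p = 0.0107) and by 2.94 in WT (SE 0.40, adjusted p = 0.0151). The annotation has the pseudogene Serpinb10-ps overlapping its 3′ end on the same strand (109425580 to 109445848), and reads there could be counted for either.

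Plaur, the urokinase receptor (chromosome 7, 25247519 to 25260892, plus strand), was at 747 and 700.4 RPKM in KO with LPS, against 257 and 66.2 RPKM in untreated KO. It was at 466 and 985 RPKM in WT with LPS, against 216 and 144 RPKM in untreated WT. LPS libraries were higher without overlap, yet the changes of 2.46 in KO (SE 0.63, adjusted p = 0.0611; 0.0390 with letters as blocks) and 1.93 in WT (SE 0.63, adjusted p = 0.0999) did not pass. Plau, the gene of urokinase itself (chromosome 14, 21655884 to 21662610, plus strand), was at 54.4 and 31.2 RPKM in KO with LPS, against 70.0 and 18.2 RPKM in untreated KO. It was at 23.4 and 16.8 RPKM in WT with LPS, against 30.4 and 20.9 RPKM in untreated WT. The groups overlap in both genotypes. The log2 change of Plau was 0.20 in KO (95% interval -1.18 to 1.57, adjusted p = 0.839) and -0.33 in WT (95% interval -1.70 to 1.04, adjusted p = 0.733).

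Letter by letter, LPS over untreated gave ratios of RPKM that differed in size between A and B more than in direction. For F3 they were 6.30 and 20.5 in KO and 5.18 and 26.5 in WT, so B showed the larger increase in both genotypes. For Plaur they were 2.91 and 10.6 in KO and 2.16 and 6.82 in WT, again larger in B. For Procr they were 4.83 and 22.4 in KO and 3.62 and 4.95 in WT. Serpinb2 did not keep that order, with 13.2 and 7.62 in KO and 4.91 and 11.98 in WT. For Thbd the ratios were 0.0779 and 0.0236 in KO and 0.136 and 0.0379 in WT. For F7 and F13a1 all 4 ratios were below 1, and F10 in WT (1.23 and 0.759) and Plau in KO (0.777 and 1.72) had A and B on opposite sides of 1.

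Counted together, 4 of the 9 passed in KO (3 up, 1 down), where 6.62% of the 11272 loci tested passed (3.31% up and 3.31% down), and 3 of the 9 passed in WT (2 up, 1 down), where 6.31% did (3.17% up and 3.14% down). LPS libraries lay wholly above untreated ones for 5 of 9 genes in KO, as for 15.1% of all loci, and for 4 of 9 in WT, as for 18.2%. They lay wholly below for 3 of 9 in KO, as for 48.0% of all loci, and for 2 of 9 in WT, as for 45.9%. The median log2 change of the 9 was 0.79 in KO and -0.05 in WT, and that of all loci was -0.28 in KO and -0.25 in WT, which median-ratio scaling shifted by 0.27 and 0.25. The members were named with earlier results of these data known, so these counts describe them and do not test them as a set.

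Calls were lost when 1 library was left out. The LPS and untreated libraries did not overlap for any called response, so no leave-out could change its direction. Leaving out 1 library also leaves fewer to measure spread, so a lost call does not show that it rested on that library. The size of the change moved either way. F3 in WT changed by 3.42 with all libraries, by 3.75 without WT untreated A and by 3.09 without WT untreated B. It changed by 4.23 without WT LPS A and by 2.62 without WT LPS B. In KO, all 4 calls were lost without KO LPS A (adjusted p = 0.0593 to 0.111) and without KO LPS B (0.0996 to 0.241), and 3 were lost without KO untreated B (0.0797 to 0.141), Serpinb2 remaining. Procr was also lost without WT untreated A (0.0541) and without WT untreated B (0.0538). In WT, all 3 calls were lost without WT untreated A (0.0870 to 0.153), without WT untreated B (0.0733 to 0.118) and without WT LPS B (0.0925 to 0.127). Without a filter on low values, all 3 WT calls (0.0531 to 0.0578) and the KO calls of F3 (0.0638) and Procr (0.0820) were lost.

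**Figure D3:**
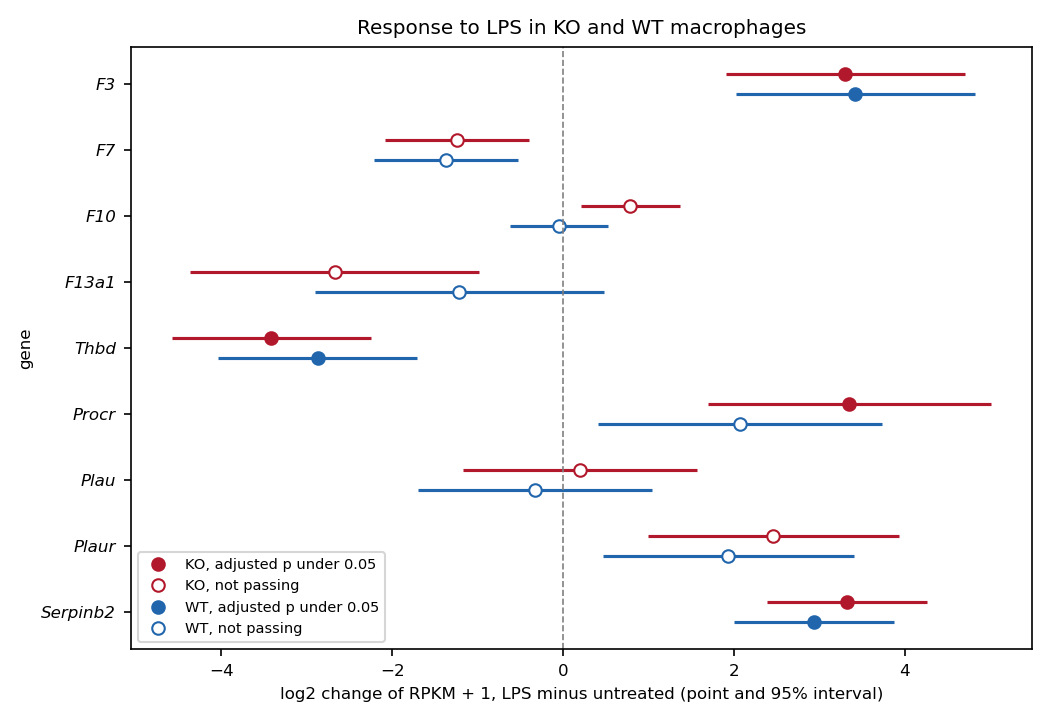
Log2 change of RPKM + 1, LPS minus untreated, for the 9 genes in KO (red) and WT (blue), with 95% intervals; filled points passed at an adjusted p under 0.05. F3, Serpinb2 and Thbd are filled in both genotypes and Procr in KO.

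The order of abundance was not the same with and without LPS. In KO with LPS the mean RPKM ran from Serpinb2 through Plaur, Procr, F10, F3, F7, Plau and F13a1 down to Thbd, and only the neighbours Procr and F10, and F7 and Plau, overlapped. In untreated KO the order was Serpinb2, F10, Plaur, F7, Procr, Plau, F13a1, Thbd and F3, and each neighbouring pair from Plaur to Thbd overlapped. WT with LPS had the order of KO with LPS, with overlap between Plaur and Procr, Procr and F10, and Plau and F13a1. In untreated WT the order was Serpinb2, F10, Plaur, Procr, F7, F13a1, Plau, Thbd and F3, with overlap between Plaur and Procr, Procr and F7, F13a1 and Plau, Plau and Thbd, and Thbd and F3. Serpinb2 thus kept the highest mean throughout, and Thbd and F3 exchanged the lowest place.

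Whether MED1 loss alters these genes was asked in untreated cells, with LPS, averaged over treatments and as a difference in the LPS response. By limma, 0 of 9 passed in each, where 0.0266%, 0.00887%, 0.0355% and 0.0355% of loci did, and the unadjusted p was under 0.05 for 0, 0, 0 and 1 of them, as for 94, 498, 472 and 184 of the 11272 loci. In untreated cells the differences ran from -1.02 for Procr (95% interval -2.68 to 0.64) to 0.49 for Plau (-0.88 to 1.87). Serpinb2, at -0.61 (-1.54 to 0.32), and F10, at -0.51 (-1.09 to 0.06), had lower values in both KO libraries than in either WT library, as had 5.86% of all loci. With LPS the differences ran from -1.57 for F13a1 (-3.26 to 0.12) to 1.02 for Plau (-0.35 to 2.39). F13a1 was lower in KO without overlap, as were 11.7% of all loci, and Plau and F10 (0.32, -0.25 to 0.90) were higher without overlap, as were 18.7%. For F7 the interval with LPS was -0.84 to 0.84 around 0.00, and for F3 it was -1.99 to 0.82 around -0.58, so changes of several-fold in F3 could not be told from none here. Averaged over treatments, Plau had the largest positive difference (0.76, -0.21 to 1.73) and F13a1 the largest negative one (-0.84, -2.04 to 0.35), with adjusted p = 0.999 for both. B cell marker sums were higher in both KO than in both WT libraries with LPS, and Lyz2 was lower in KO with and without LPS; their part in these values was not tested.

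The LPS response of KO minus that of WT was 0.84 for F10 (SE 0.35, 95% interval 0.02 to 1.65), with an unadjusted p of 0.0457 and an adjusted p of 1.0 by limma. The other 8 had intervals that include 0, from -1.46 for F13a1 (-3.85 to 0.93) to 1.28 for Procr (-1.07 to 3.63).

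**Figure D4:**
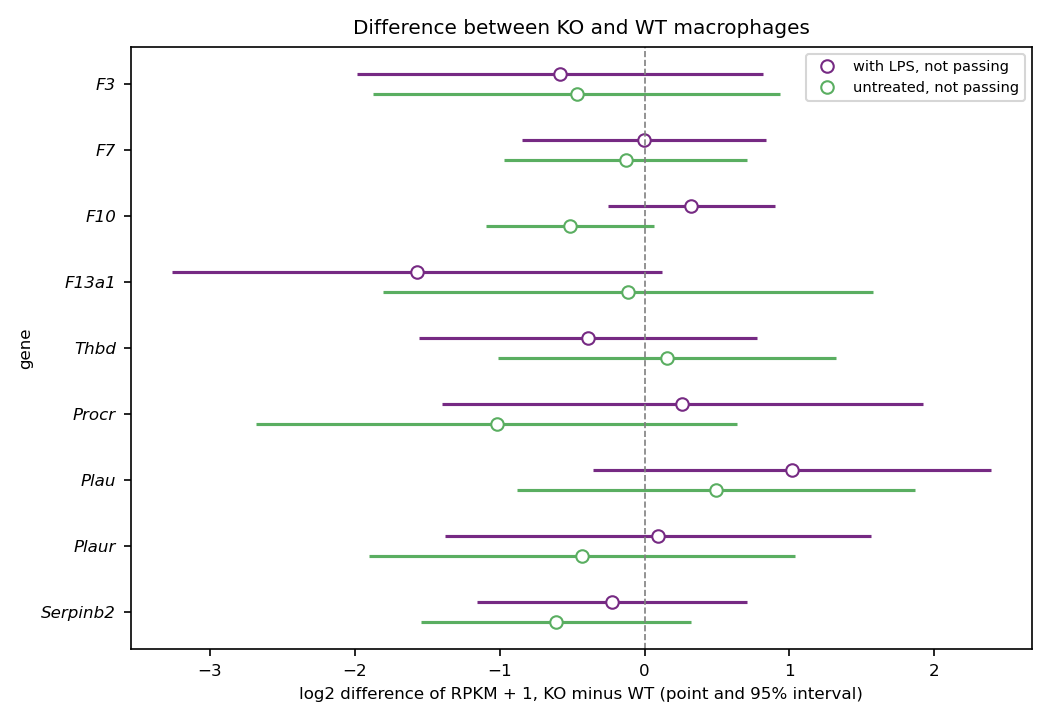
Log2 difference of RPKM + 1, KO minus WT, with LPS (purple) and untreated (green), with 95% intervals, for the 9 genes. No point passed at an adjusted p under 0.05, and F10 lies at 0.32 with LPS and at -0.51 untreated.

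Of 30 further coagulation, anticoagulant and fibrinolysis genes, 8 were above the filter and 12 were listed at 0 in every library, among them the genes of prothrombin (F2), the fibrinogen chains (Fga, Fgb and Fgg), plasminogen (Plg) and protein C (Proc). None of the 8 passed as lower with LPS in either genotype by limma, and their median log2 changes were -0.47 in KO and -0.12 in WT. Of 12 receptors and partners, among them the thrombin receptor F2r, 6 were tested and 0 passed in either genotype by limma (medians -0.47 in KO and -0.53 in WT), and of 5 genes of the vitamin K cycle and factor secretion 5 were tested and 0 passed (medians -0.46 in KO and -0.23 in WT). In the genotype comparisons 0 genes of these lists passed.

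Likeness of pattern was measured as the mean absolute difference over the 8 libraries between the log2 values of 2 genes, each centred on its own mean. Nearest to F3 was the cytokine signalling inhibitor Socs3 (0.24), then Phlda1 (0.35) and Has1 (0.38). Nearest to Thbd were Dhrs3 (0.16), Hpse (0.19) and Fgd4 (0.22). Procr was nearest to the cystine transporter genes Slc7a11 (0.33) and Slc3a2 (0.38), Plaur to the growth factor gene Hbegf (0.25), Serpinb2 to Olfr1033 (0.20), F7 to Knop1 (0.07), F10 to Arl6ip5 (0.10), Plau to Dok7 (0.21) and F13a1 to Tgfbi (0.36). Among the 9 themselves, F3 and Serpinb2 were nearest to each other (0.42), as were Procr and Plaur (0.49), and Thbd and F13a1 (0.63).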

How the data were processed

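Peritoneal macrophage RNA was sequenced in 8 libraries. Per the submitters' processing notes, bcl2fastq, TopHat2 2.0.14 and Cufflinks 2.2.1 were used on mm9; annotation, strandedness and read pairing are not stated there. The authors deposited RPKM values, 1 column per library, in 24192 lines holding 23735 loci once 457 repeated lines were merged. Loci at 1 RPKM or more in at least 2 libraries were kept, 11272 in all, the 9 members among them. Log2(RPKM + 1) values were fitted in limma 3.58.1 (R 4.3.3) with 1 mean per group, trended variances and 6 contrasts, and were called at a two-sided adjusted p under 0.05. The step was checked on simulated data.

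The labels do not explain the letters A and B. Libraries with the same letter deviated from their group means together (r from 0.20 to 0.41 across loci, in 6 of 6 pairs of groups). A fit with the letter as a block was therefore run as an alternative, and is given where it changes a call. The main fit, with its SEs and intervals, did not use the letter. Relative depth came from the most common ratio between libraries among 3275 loci with low values. With it, 91.6% of these loci held whole multiples of 1 step, within 0.1 read plus 0.02 per read. Absolute depth came from 770 genes with 1 transcript in GENCODE vM1 on mm9 (quartiles for the deepest library 13.6 and 14.8 M). Gene positions come from the same annotation and promoter sequences from RefSeq. All members, up to 4 called genes per list and direction, and the genes most alike each member were named. A result for another gene of the pathway lists is not reported here. The members, lists and motifs were chosen with earlier results of these data known. Python 3.11.15, pandas 2.3.3, numpy 2.4.6 and matplotlib 3.10.9 were used.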

Additional observations from a re-analysis of the deposited data

Results flagged for a closer look

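F10 stood out because its values (278 and 266 RPKM) in both untreated KO libraries lay below both untreated WT libraries (331 and 456 RPKM), and with LPS both KO libraries (523 and 423 RPKM) lay above both WT libraries (408 and 346 RPKM). The pattern was shared by 0.497% of the 11272 loci tested. The test of the difference, KO minus WT of the LPS response, gave 0.84 on the log2 scale (unadjusted p = 0.0457, adjusted p = 1.0 by limma) and did not pass.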

How the results depend on the processing

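With 2 libraries a group, precision is limited by their spread, and Thbd with LPS also by few reads. For each member and contrast 16 alternatives were run, 864 gene values in all. Of these, 783 kept their direction and side of the threshold, 42 changed sign, 27 lost and 12 gained a call. Some alternatives, such as leaving out a library of a group not compared, cannot move a log2 change. The 783 is therefore no measure of robustness. The fit without a filter tested 16574 loci rather than 11272. The number of members called, 4 of 9 for LPS in KO, was 2 without a filter, 7 with the letter as a replicate block, and 0 to 5 with 1 library left out. For LPS in WT it was 3, 0 without a filter, 4 with the replicate block, and 0 to 4 with 1 library left out. In the genotype contrasts it was 0 under every alternative. Of all loci, 746 were called for LPS in KO, 262 without a filter, 1611 with the block and 15 to 1546 with 1 library left out. For LPS in WT these counts were 711, 270, 1818 and 9 to 2242.

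No gene called for LPS changed sign in that contrast, which leaving out 1 library could not bring about, as the groups compared did not overlap. The cause of the sign changes in uncalled values was not tested. F10 under LPS in WT was 0.24 with median-ratio scaling and -0.28 to 0.18 with 1 library left out, and Plau under LPS in KO was -0.75 to 1.14. Plaur in KO minus WT with LPS was -0.014 with quantile normalization. With 1 library left out, KO minus WT untreated ran from -1.14 to 0.21 for F3, -0.53 to 0.27 for F7, -1.06 to 0.84 for F13a1, -0.23 to 0.53 for Thbd, -0.45 to 1.44 for Plau and -1.40 to 0.54 for Plaur. KO minus WT with LPS ran from -1.39 to 0.22 for F3, -0.34 to 0.33 for F7, -1.12 to 0.33 for Thbd, -0.51 to 1.04 for Procr, -0.44 to 0.63 for Plaur and -0.66 to 0.22 for Serpinb2. The average over treatments ran from -0.27 to 0.13 for F7, -0.21 to 0.020 for F10, -0.48 to 0.24 for Thbd, -0.82 to 0.067 for Procr and -0.66 to 0.32 for Plaur. The difference in LPS response ran from -0.92 to 0.69 for F3, -0.28 to 0.53 for F7, -1.27 to 0.18 for Thbd, -0.42 to 1.47 for Plau, -0.44 to 1.497 for Plaur and -0.054 to 0.83 for Serpinb2.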

Other observations

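F13a1 and Plau were higher in library A than in library B of all 4 groups, as were 18.2% of loci. The A minus B difference of F13a1 on the log2 scale was 0.60 in KO with LPS, 0.84 in untreated KO, 1.60 in WT with LPS and 1.91 in untreated WT, and that of Plau was 0.78, 1.89, 0.45 and 0.52 in the same groups. Mast cell markers ran the other way. Their sum of 5 genes was 2.99 RPKM in A and 66.2 in B for KO with LPS, and 0.252 and 164 for untreated KO. It was 23.9 and 83.7 for WT with LPS, and 0.689 and 70.7 for untreated WT. The sum of 4 large peritoneal macrophage markers was also lower in A. In KO it was 120.5 and 249.1 RPKM with LPS, and 104.8 and 434.9 untreated. In WT it was 189.9 and 272.5 with LPS, and 124.7 and 302.9 untreated. Of that list, Timd4 and Prg4 kept this order in every group. Gata6 kept it only in untreated KO (7.24 and 11.6 RPKM). It was at 3.77 and 3.59 RPKM in KO with LPS, 4.21 and 4.04 in WT with LPS, and 9.13 and 8.74 in untreated WT. Icam2 departed from the order in KO with LPS alone, at 19.1 and 18.8 RPKM. Platelet and T and NK cell sums were lower in A as well, but B cell sums were not throughout. The platelet sum was nearly all Pf4. Ppbp was higher in A in untreated KO (1.16 and 0.96 RPKM) and lower in A elsewhere, and Itga2b and Gp1ba did not keep 1 order. Cd2 of the T and NK list was higher in A in KO with LPS (38.1 and 31.3 RPKM) and lower in A elsewhere. The part of these lists in the values of F13a1 and Plau was not tested. In untreated KO, library A was also the higher in F3 (1.35), Procr (1.78) and Plaur (1.94), while in WT with LPS library B was the higher in these genes (-1.61 for F3, -1.55 for Procr and -1.08 for Plaur).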
